A study of Macaca mulatta with 136 samples.

Results

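The 9 genes RBPMS, THY1, NEFL, NEFM, NEFH, SNCG, STMN2, GAP43 and RIT2 mark retinal ganglion cells or build and maintain their axons, and they were taken from the files by symbol, 9 of 19422 gene identifiers. Each was listed once, so that every member had an estimated count in all libraries. The tissue was postmortem eye from adult rhesus macaques that carried no genetic change or treatment in the labels. Punches of 2 mm were cut at the fovea (the central macula), the perimacula around it, in nasal retina and in the periphery, and microdissection gave neural retina and RPE/choroid from each, the latter being the pigment epithelium with the vessels behind it. The study describes the peripheral punches as temporal, so that comparisons of nasal location and periphery are also between sides of the retina. The comparisons ask how transcript levels differ between central and peripheral locations in each layer. Values are given in the order right and left eye of animal RM03, then right and left eye of animal RM04, called eyes 1 to 4, so that n = 4 eyes from 2 animals. Levels are counts scaled to a library total of 1000000 (CPM), and changes are log2 fold changes from edgeR with a standard error (SE) and a p adjusted over all genes tested, called below 0.05. The edgeR p-values measure the spread between eyes left after the difference between the 2 animals is removed, with fellow eyes counted as independent. They do not measure the spread between animals.

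Retinal ganglion cells are the output neurons of the retina. Their cell bodies lie in its innermost layer, piled up in several rows around the fovea and thinly spread in the periphery, and their axons run across the retinal surface to the optic nerve without leaving it through the RPE or the choroid. The axon is filled with neurofilaments, polymers of a light (NEFL), a medium (NEFM) and a heavy (NEFH) subunit, and contains growth and microtubule proteins that neurons keep through life. The choroid has nerves of its own, the axons of autonomic and sensory neurons, and vessels with smooth muscle. In bulk tissue, fewer ganglion cells and less RNA per cell cannot be told apart.

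Library totals ranged from 42448903 to 78574055 estimated counts. Periphery libraries came from a flow cell of their own, and its effect and that of the location cannot be told apart. The comparisons among fovea, perimacula and nasal retina were made within shared flow cells. Of the 32 libraries, 3 that stood apart in the members were also left out singly, and values that changed without them are given below. The perimacular retina of eye 4 had more of every member than the other perimacular eyes and the lowest rod marker sum there (10989.5 CPM against 14847, 15023 and 17695 CPM). The RPE/choroid of eye 3 at the fovea had the highest neurofilament levels of that tissue and 489.9 CPM of rod markers against 47.2 to 126 CPM in the other eyes. The RPE/choroid of eye 3 at the periphery had the highest STMN2, GAP43 and RIT2 of that tissue. Other libraries stood apart too and were left out only with their whole eye. The peripheral retina of eye 2 had the least of every member there, in sum 581 CPM against 836 to 1260 CPM. The peripheral RPE/choroid of eye 1 had the highest neurofilament levels there, with 9.32 CPM of NEFL against 0.942 to 2.76 CPM.

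In the neural retina, all 9 genes were highest at the fovea and lowest at the periphery in 4 of 4 eyes. The 4 foveal libraries lay above every perimacular, nasal and peripheral library for each of the 9. Levels fell from fovea to perimacula to nasal retina to periphery in all 4 eyes for 7 genes, and in 2 eyes for GAP43 and 3 eyes for RIT2. Together the 9 genes made up 1.14 ± 0.0672% (SD, n = 4) of the counts at the fovea, 0.483 ± 0.149% at the perimacula, 0.246 ± 0.0121% in the nasal retina and 0.097 ± 0.032% in the periphery. The 3 neurofilament genes alone made up 0.844 ± 0.0724% at the fovea and 0.0613 ± 0.0191% at the periphery.

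All 9 members rose at the fovea against the periphery, where 31% of the genes tested were higher at the fovea and 67% were called in either direction. The median log2 fold change of the members was 3.18 and that of all genes tested was -0.056. All 9 rose against the perimacula, where the background was 19% higher and 35.2% called in either direction, and all 9 against the nasal retina, where it was 25.1% and 52.2%. The perimacula and the nasal retina each also exceeded the periphery for all 9, beside 23.4% and 24.5% of genes higher and 50.3% and 48.7% called in either direction. These comparisons share libraries, so that they are not independent of each other. The summed rod markers ran the other way, from 4058 to 4840.2 CPM at the fovea to between 25124 and 28096 CPM at the periphery, and all 9 rod markers tested fell at the fovea with a median log2 fold change of -2.20. CPM are shares of a library, and the part of the rods in the members' values was not tested.

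**Figure D1:**
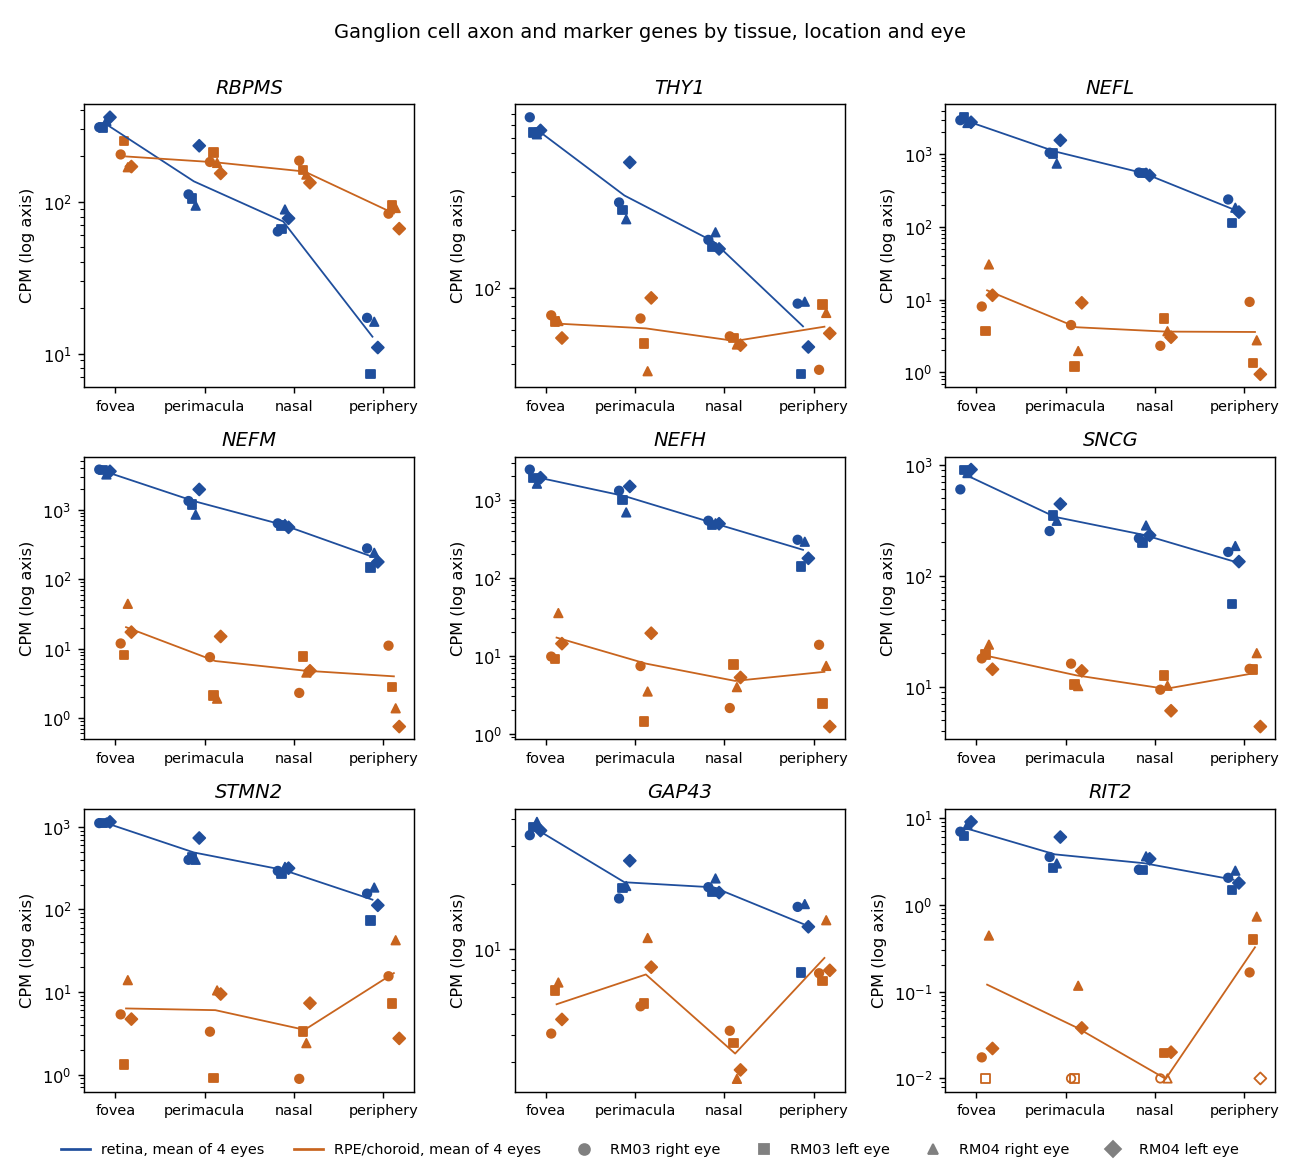
Levels of the 9 genes in CPM on a log axis by location, with a point for each eye of the retina and of the RPE/choroid and open symbols at the bottom for libraries with no counts. In the retina every gene is highest at the fovea and lowest at the periphery, and the RPE/choroid levels of RBPMS lie above the retinal ones at the nasal location and the periphery.

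RBPMS encodes an RNA-binding protein that is widely used to mark ganglion cells in mammalian retina. Its retinal level at the fovea was 309.8, 308, 341 and 361 CPM in eyes 1 to 4. At the perimacula it was 112, 105, 94.3 and 234 CPM, and in the nasal retina 63.8, 66.1, 89 and 77.8 CPM. Only the perimacular and nasal ranges came near each other, with eye 4 of the perimacula well above the other 7 libraries. At the periphery RBPMS was 17.2, 7.3, 16.2 and 10.9 CPM, below every library of the other locations. It had the largest change of the members between fovea and periphery, a log2 fold change of 4.73 (SE 0.34, edgeR adjusted p = 3.01e-07), or 26.6-fold, which ranked 31 among 15380 genes. Within single eyes the fold lay between 18 and 42.2. Against the perimacula RBPMS was higher at the fovea by 1.34 (SE 0.29, edgeR adjusted p = 0.00452), and by 1.71 without the perimacular library of eye 4.

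THY1 encodes a GPI-anchored surface glycoprotein of neurons, used to isolate ganglion cells and also found on fibroblasts and other cells. Its foveal levels in the retina were 768, 641, 626 and 656 CPM. The perimacular levels were 277, 253, 227 and 448 CPM, the nasal levels 177, 163, 194 and 159 CPM and the peripheral levels 82.7, 35.5, 84.6 and 49.2 CPM. The 4 locations did not overlap in any eye. The log2 fold change of fovea against periphery was 3.48 (SE 0.30, edgeR adjusted p = 1.18e-06) and against the perimacula 1.21 (SE 0.28, edgeR adjusted p = 0.00587).

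The light subunit NEFL was at 2948, 3232, 2696 and 2759 CPM at the fovea and at 1052, 1023, 744 and 1559 CPM at the perimacula. At the nasal location it was 561, 555, 559.9 and 511 CPM, and at the periphery 239, 114, 184 and 160.3 CPM. No 2 locations overlapped. NEFM, the medium subunit, was at 3782, 3699, 3215 and 3571 CPM at the fovea and at 1333, 1182, 848 and 1957 CPM at the perimacula. It reached 635, 596, 624 and 558 CPM at the nasal location and 277, 147, 239.6 and 177 CPM at the periphery, again with no overlap. NEFL and NEFM changed by nearly the same amount, with log2 fold changes of fovea against periphery of 4.12 (SE 0.27, edgeR adjusted p = 1.81e-07) and 4.15 (SE 0.28, edgeR adjusted p = 2.32e-07). Their correlation over the 16 retinal libraries (Pearson on log2 CPM) was the highest of any pair of members, 0.998, and is a description of libraries that share eyes, punches and depth.

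NEFH, the heavy subunit, whose long tail lies between neighbouring filaments and is enriched in large axons, followed the same order. Its changes from fovea to perimacula and from nasal location to periphery were smaller than those of NEFL and NEFM. That from perimacula to nasal location was not smaller. Its foveal levels were 2439, 1903, 1607 and 1920.2 CPM against 1305, 991, 688 and 1483 CPM at the perimacula. The nasal levels were 538, 476, 499 and 493 CPM and the peripheral levels 307, 138, 289 and 177 CPM. The foveal and perimacular eyes lay close, 1607 against 1483 CPM at their nearest, while the other locations were well apart. The log2 fold change of NEFH against the perimacula was 0.85 (SE 0.29, edgeR adjusted p = 0.0385), the least certain of the 9 in that comparison, and its adjusted p was between 0.0734 and 0.109 when eye 1, 2 or 3 was left out. Against the periphery it was 3.17 (SE 0.31, edgeR adjusted p = 2.94e-06).

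SNCG, gamma-synuclein, is a soluble protein abundant in ganglion cell bodies and axons. At the fovea it was at 600.2, 898, 842 and 905 CPM, and at the perimacula at 253, 348, 313 and 443 CPM. At the nasal location it was at 218, 200.2, 284 and 232 CPM and at the periphery at 164, 55.9, 186 and 134 CPM. The foveal libraries stood clear, whereas the perimacular and nasal ranges overlapped. Its log2 fold change was 2.67 against the periphery (SE 0.29, edgeR adjusted p = 5.82e-06) and 1.31 against the perimacula (SE 0.27, edgeR adjusted p = 0.00332). Eye 2 had the lowest peripheral level of all 9 members, and the fold of SNCG within eyes ran from 3.66 in eye 1 to 16.1 in eye 2.

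STMN2, which binds tubulin dimers in axons and growth cones, had the tightest foveal values of the 9, with 1111, 1120.0, 1131 and 1149 CPM. The perimacular values were 399, 428, 399 and 733 CPM and the nasal values 293, 269, 327 and 316 CPM. The peripheral values, 155, 73.7, 184 and 112 CPM, were below all of these. STMN2 was higher at the fovea by 3.18 against the periphery (SE 0.27, edgeR adjusted p = 8.41e-07) and by 1.27 against the perimacula (SE 0.25, edgeR adjusted p = 0.00229).

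GAP43, a growth cone protein that stays present in some adult neurons, had the shallowest gradient. It was at 33.6, 36.8, 38.8 and 35.3 CPM at the fovea and at 17.1, 19.2, 19.6 and 25.6 CPM at the perimacula. The nasal levels of 19.3, 18.4, 21.2 and 18.3 CPM lay within the perimacular range, and the peripheral levels were 15.7, 7.81, 16.2 and 12.7 CPM. The log2 fold change of fovea against periphery was 1.53 (SE 0.18, edgeR adjusted p = 1.42e-05), or 2.89-fold, and against the perimacula 0.88 (SE 0.18, edgeR adjusted p = 0.00297).

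RIT2 encodes a neuronal GTPase of the Ras family and was the least counted member in the retina. It was at 6.91, 6.19, 8.25 and 8.96 CPM at the fovea and at 3.53, 2.65, 2.97 and 5.99 CPM in the perimacular eyes. The nasal levels were 2.53, 2.49, 3.6 and 3.37 CPM and the peripheral levels 2.04, 1.47, 2.46 and 1.78 CPM. These values rest on 1675, 775, 717 and 572 estimated counts over the 4 eyes of each location. The foveal eyes again lay above all others, with the perimacular and nasal eyes intermixed. RIT2 was higher at the fovea by 2.02 against the periphery (SE 0.23, edgeR adjusted p = 1.11e-05) and by 1.05 against the perimacula (SE 0.23, edgeR adjusted p = 0.0041).

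**Figure D2:**
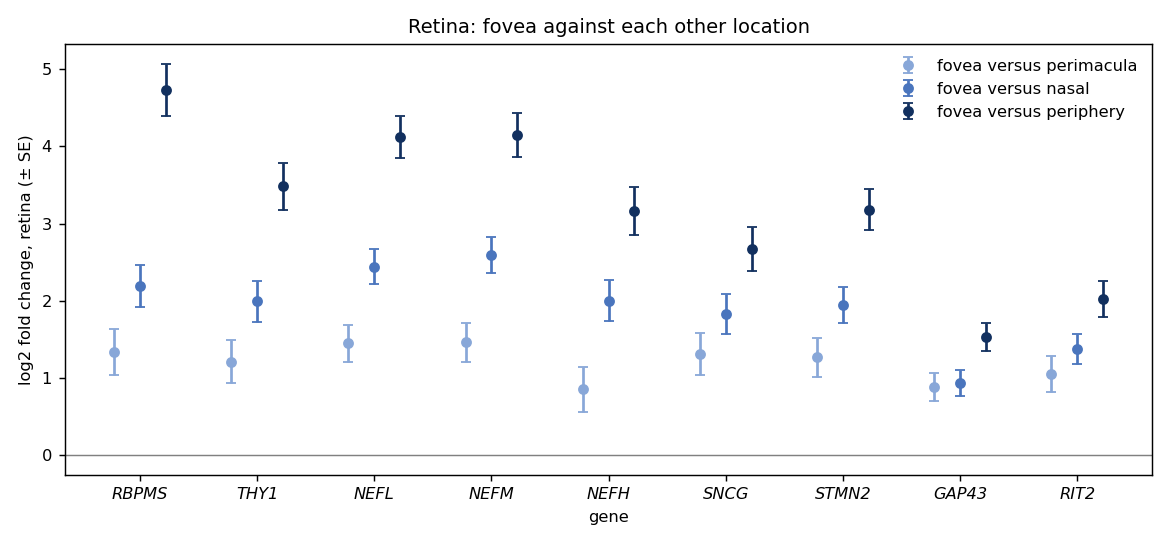
Log2 fold changes of the 9 genes in the retina with standard errors, for the fovea against perimacula, nasal retina and periphery (edgeR, n = 4 eyes per location). Against the periphery RBPMS, NEFM and NEFL are highest, with 4.73, 4.15 and 4.12, and GAP43 and RIT2 lie closest to 0, with 1.53 and 2.02.

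Between the perimacula and the nasal retina fewer members changed. Of the 9 genes, 3 rose at the perimacula, beside 0.446% of all genes higher and 1.49% called in either direction, and they were the 3 neurofilaments: NEFM by 1.14 (SE 0.23, edgeR adjusted p = 0.0254), NEFL by 1.00 (edgeR adjusted p = 0.035) and NEFH by 1.15 (SE 0.26, edgeR adjusted p = 0.041). None of these calls remained without the perimacular library of eye 4, with edgeR adjusted p of 0.0776, 0.121 and 0.173 and changes of 0.85, 0.74 and 0.93. They were also lost when any single eye was left out and with no covariate. Values not called were 0.87 for RBPMS (edgeR adjusted p = 0.108), 0.79 for THY1, 0.69 for STMN2, 0.53 for SNCG, 0.33 for RIT2 and 0.07 for GAP43 (edgeR adjusted p = 0.891). Against the periphery the nasal retina was higher by 2.53 for RBPMS, 1.67 for NEFL, 1.54 for NEFM, 1.48 for THY1, 1.22 for STMN2, 1.15 for NEFH, 0.82 for SNCG (edgeR adjusted p = 0.0147), 0.63 for RIT2 (edgeR adjusted p = 0.0173) and 0.59 for GAP43 (edgeR adjusted p = 0.0108).

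The members did not fall by equal amounts. Relative to RBPMS in the same library, as the log2 of the CPM ratio, the other 8 genes were all lower at the fovea than at the periphery in 4 of 4 eyes, a direction that follows from RBPMS having the largest change of the 9. The difference was smallest for NEFM and NEFL, at -0.63 and -0.65, and lay at -1.25 for THY1, -1.57 for STMN2, -1.58 for NEFH, -2.05 for SNCG, -2.77 for RIT2 and -3.23 for GAP43. Relative to THY1 instead, RBPMS, NEFM and NEFL were higher at the fovea than at the periphery, by 1.25, 0.62 and 0.60, and NEFH, STMN2, SNCG, RIT2 and GAP43 lower, between -0.32 for STMN2 and -1.98 for GAP43. Each of these had an exact two-sided permutation p of 0.0286, the smallest that 70 relabellings of 4 against 4 eyes allow, and 0.0381 after adjustment over 16 tests for a denominator. Against the nasal retina, which shared flow cells with the fovea, the ratio to RBPMS was lower at the fovea for SNCG (-0.37), STMN2 (-0.25), GAP43 (-1.26) and RIT2 (-0.82), each with an adjusted exact permutation p of 0.0381. It was not called for THY1 (-0.21), NEFL (0.25), NEFM (0.40) or NEFH (-0.21), with adjusted exact permutation p between 0.106 and 0.371. Relative to THY1, GAP43 and RIT2 were again lower at the fovea than in the nasal retina (-1.05 and -0.61) and NEFL and NEFM higher (0.45 and 0.61), while SNCG and STMN2 were not called (adjusted exact permutation p = 0.731 and 0.718). The permutation test treats both locations of an eye as independent. With the eyes paired, a sign-flip test of 4 eyes cannot reach 0.05.

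Among the neurofilament subunits, the heavy one was unequal to the others across locations. The CPM ratio of NEFH to NEFL, not corrected for transcript length and read between locations only, was 0.827, 0.589, 0.596 and 0.696 in the foveal eyes and 1.28, 1.21, 1.57 and 1.11 in the peripheral eyes. The 2 sets did not overlap, and the perimacular (1.02 ± 0.147, SD, n = 4) and nasal (0.918 ± 0.0517) means lay between them. The log2 ratio was lower at the fovea by -0.94 against the periphery and by -0.45 against the nasal location, and that of NEFH to NEFM by -0.96 and -0.61, each with an exact permutation p of 0.0286 and 0.0343 after adjustment over 6 tests. That test treats the 2 locations of an eye as independent. With the eyes paired, a sign-flip test gave p = 0.125 for each, the smallest that 4 eyes allow. The ratio of NEFM to NEFL was 1.23 ± 0.0722 at the fovea and 1.21 ± 0.0966 at the periphery, a log2 difference of 0.02 (adjusted exact permutation p = 0.8), and was higher at the fovea than at the nasal location by 0.15 (adjusted exact permutation p = 0.0343).

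**Figure D3:**
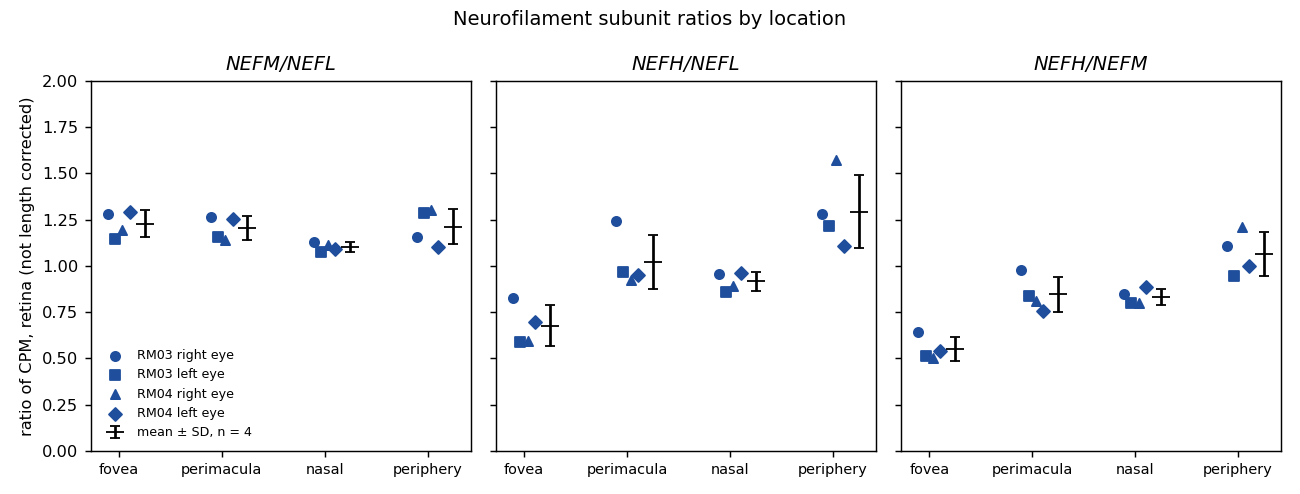
CPM ratios of the neurofilament subunits in the retina by location, with a point for each eye beside the mean and SD. NEFH to NEFL rises from 0.677 at the fovea to 1.29 at the periphery and NEFH to NEFM from 0.549 to 1.06, while NEFM to NEFL has means between 1.10 and 1.23 at the 4 locations.

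Other markers of ganglion cells were compared with the members, from a list of 15 symbols of which 13 were in the files. At the fovea against the periphery of the retina 11 of the 13 rose, none fell and 2 were not called, with a median log2 fold change of 3.55. The largest changes were those of the transcription factors TBR1 (5.74, SE 0.44), POU4F2 (4.50) and EBF3 (4.17). POU4F2, a factor that ganglion cells need to differentiate, was at 89.5, 85.6, 95.8 and 96.9 CPM at the fovea and at 6.26, 2.16, 4.5 and 3.95 CPM at the periphery. The smallest called changes were 0.27 for ISL1, which bipolar and amacrine cells also express (edgeR adjusted p = 0.03), 3.10 for TUBB3, whose symbol is on 2 entries so that its value is uncertain, and 3.44 for L1CAM. The melanopsin gene OPN4, which marks the intrinsically photosensitive ganglion cells, was at 0.52 and not called (edgeR adjusted p = 0.081), and it was lower at the fovea against the perimacula by -0.85 (edgeR adjusted p = 0.0178) and against the nasal location by -1.005 (edgeR adjusted p = 0.00133), the only one of the 13 with that sign. In each of those 2 comparisons 11 others rose, with medians of 1.40 and 2.05.

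Of 20 other genes of the axonal cytoskeleton, growth and transport, 18 rose at the fovea against the periphery, 1 fell and 1 was not called, with a median of 1.67. PRPH, a neurofilament-related intermediate filament, had a log2 fold change of 4.10, the kinesin heavy chain KIF5A 3.60 and the microtubule protein MAP1A 2.96. STMN1, a tubulin-binding relative of STMN2 that is found in many cells, was the one that fell, by -0.47 (edgeR adjusted p = 0.00018). The smallest rises were those of ANK3 and STMN4, at 0.55 each. Against the perimacula 17 rose with a median of 0.83, and against the nasal location 19 rose and STMN1 fell, with a median of 1.11.

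The medians of the following marker lists of other cells all lay below that of the members (3.18) between fovea and periphery of the retina. Of all genes tested, 31% were higher at the fovea and 67% were called in either direction. All 4 horizontal cell markers rose with a median of 1.84, as did 3 of 7 amacrine markers with a median over the 7 of 0.38. Of 6 bipolar markers 3 fell and none rose, with a median of -0.35. Of 6 Müller cell and astrocyte markers 5 fell, with a median of -1.40, and all 5 pigment epithelium markers fell, with a median of -2.71. The part of these cells in the members' values was not tested.

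**Figure D4:**
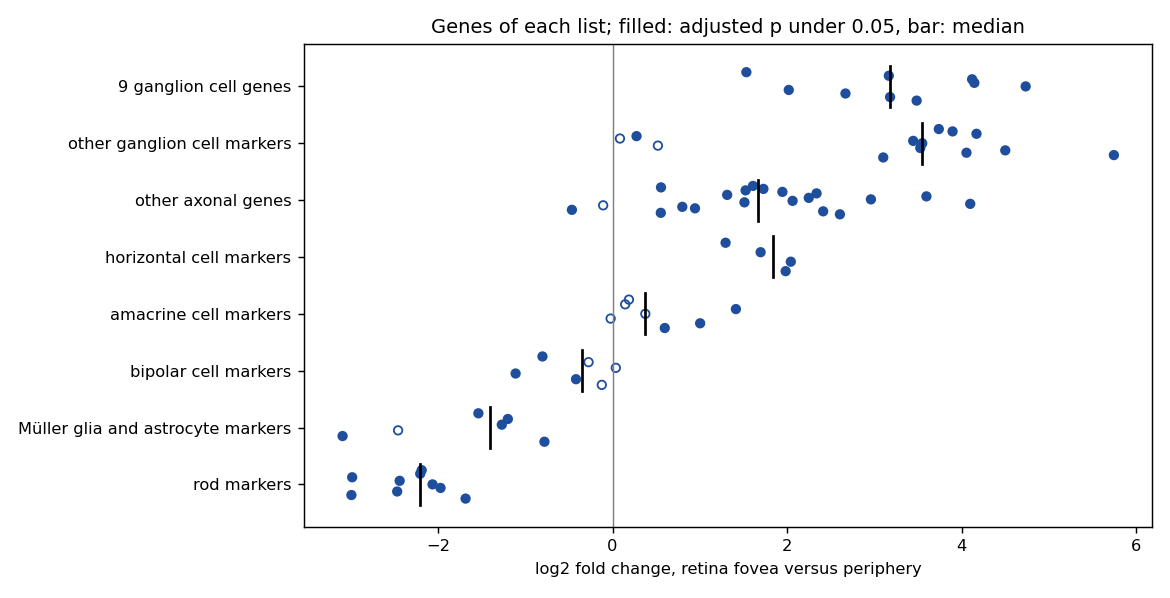
Log2 fold changes of the genes of each marker list in the retina, fovea against periphery (edgeR), with a point for each gene, filled where called, and a bar at the median of the list. The other ganglion cell markers have a median of 3.55, the axonal genes 1.67 and the rod markers -2.20.

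The genes whose retinal pattern was most like each member are given by Pearson correlation of log2 CPM over the 16 retinal libraries, among 9889 genes, as a description. They were POU4F2 (0.997), SLC17A6 and ANKRD34A for RBPMS, and ADAM23, EBF1 and B4GALNT1 for THY1. GPAT3, listed under 2 identifiers, and ADAM23 were among the closest to NEFL, CAST (0.998), GPAT3 and ADAM23 to NEFM, and PPP1R1C (0.992), GALNT14 and ANO4 to NEFH. For SNCG they were LOC713693, FSD1 and DMTN, for STMN2 AMER3 (0.998), NRN1 and MAP1A, for GAP43 SCN2B (0.984), SPTB and LOC713693, and for RIT2 FGF12, BPGM and NRCAM. Among the 50 genes closest to a member, 14 were shared by at least 5 of the 9, and the 10 of these with the highest mean correlation were MICAL2, MMP15, AHNAK2, YWHAH, TNFRSF21, ANK1, ADAM23, EBF1, KCNC2 and MYT1L. Their log2 fold changes between fovea and periphery ran from 2.28 for MYT1L to 4.66 for KCNC2. The members themselves correlated with each other between 0.898, for NEFH with GAP43, and 0.998.

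In the RPE/choroid most of the genes were far lower than in retina, with RBPMS as an exception. THY1 and GAP43 were close to the retinal level at the periphery. NEFL was at 8.05, 3.68, 30.5 and 11.5 CPM at the fovea and at 9.32, 1.35, 2.76 and 0.942 CPM at the periphery, and the retinal mean was 216 and 48.5 times that of the RPE/choroid at these locations. All 9 members together made up 0.0346 ± 0.00427% (SD, n = 4) of the counts at the fovea and 0.02 ± 0.00459% at the periphery. At the fovea all 9 were higher in retina than in RPE/choroid, in a comparison where 75.5% of genes differed and 37% were higher in retina. The log2 fold changes there were 7.63 for NEFL, 7.52 for STMN2, 7.30 for NEFM, 6.74 for NEFH, 5.27 for SNCG, 3.23 for THY1, 2.55 for GAP43 and 0.59 for RBPMS (SE 0.24, edgeR adjusted p = 0.0297). Without the foveal RPE/choroid of eye 3 they were 8.44 for NEFL, 8.04 for STMN2, 8.05 for NEFM, 7.36 for NEFH and 0.53 for RBPMS (edgeR adjusted p = 0.0778). GAP43 was higher in retina at the periphery by 0.52 (edgeR adjusted p = 0.0419), with means of 13.1 and 9.11 CPM, a ratio of 1.44, and overlapping groups. Higher in retina were 8 of the 9 at the perimacula, beside 37.7% of all genes (76.7% called in either direction), 8 in the nasal punches, beside 37.6% (76.2%), and 7 in the periphery, beside 37.8% (75.7%).

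RBPMS was the exception. Its RPE/choroid levels were 205, 251, 169 and 171 CPM at the fovea and 183, 211, 180.4 and 154 CPM at the perimacula. The nasal levels were 187, 162, 151 and 134 CPM and the peripheral ones 83.5, 94.2, 91 and 66.5 CPM. The peripheral eyes lay below all others, and the 3 other locations overlapped. RBPMS was lower in retina than in RPE/choroid at the nasal location, with a log2 fold change of -1.27 (edgeR adjusted p = 4.21e-05), and at the periphery, with -2.71 (SE 0.26, edgeR adjusted p = 3.72e-10). The mean RPE/choroid level exceeded the retinal mean 2.13-fold and 6.49-fold at these locations. RBPMS was the only member lower in retina, where 38.6% and 37.9% of all genes were. At the perimacula its value was -0.48 (edgeR adjusted p = 0.0752), and -0.88 (edgeR adjusted p = 0.000473) without the perimacular retina of eye 4.

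THY1 was close to its retinal level at the periphery alone. It was at 71.9, 66.8, 67.1 and 54.8 CPM in the RPE/choroid of the fovea and at 69.3, 51.4, 36.9 and 88.6 CPM in that of the perimacula. The nasal levels were 55.9, 54.7, 50.7 and 50.3 CPM and the peripheral ones 37.5, 81.7, 74 and 58 CPM. The 4 locations overlapped. The mean retinal level was 10.3, 4.90 and 3.28 times that of the RPE/choroid at the fovea, perimacula and nasal location. It was 1.00 times at the periphery, where the log2 fold change was -0.01 (edgeR adjusted p = 0.978). The summed fibroblast markers of the RPE/choroid, a cell type in which THY1 is known, were between 2227 and 2911 CPM at the fovea and between 4652 and 9197 CPM at the periphery. Of the 4 fibroblast markers 3 fell at the fovea against the periphery, and their part in THY1 was not tested.

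RIT2 was at or near 0 in the RPE/choroid. Over 4 eyes it had 24 estimated counts at the fovea, 9 in the perimacular, 2 in the nasal and 84 in the peripheral punches, and 1, 2, 2 and 1 libraries had none. With none, a level of up to 0.0435 to 0.0632 CPM is allowed (3 counts per library, counting error only). The pooled level in retina was 63.9 times that in RPE/choroid at the fovea (95% counting interval 42.8 to 100.1) and 6.09 times at the periphery (95% counting interval 4.84 to 7.76). Without the RPE/choroid of eye 3, which held 22 of the 24 foveal and 48 of the 84 peripheral counts, the ratios were 577 (159 to 4765) and 10.7 (7.61 to 15.4). The foveal counts came mostly from eye 3, at 0.441 CPM against 0 to 0.0221 CPM, and the peripheral ones from eyes 1 to 3, at 0.166, 0.398 and 0.728 CPM.

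Between locations of the RPE/choroid few members changed. RBPMS rose at the fovea against the periphery by 1.36 (SE 0.12, edgeR adjusted p = 1.18e-05), at the perimacula by 1.16 (SE 0.12, edgeR adjusted p = 4.83e-05) and at the nasal location by 1.08 (SE 0.11, edgeR adjusted p = 4.01e-06). It was the only member that rose in these comparisons, where 21.2%, 17.7% and 21.8% of all genes did and 44.1%, 34.9% and 44.6% were called in either direction. The summed smooth muscle markers, of which all 5 rose at the fovea against the periphery with a median of 2.64, were at 6326, 7621, 5643 and 4805 CPM at the fovea and at 806, 1755, 1326 and 451 CPM at the periphery. They were between 3367 and 4293 CPM at the perimacula and between 2365 and 4527 CPM at the nasal location. All 4 endothelial markers also rose there. RBPMS is known from smooth muscle, and the part of these cells in its RPE/choroid level was not tested.

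GAP43 and STMN2 fell at the nasal location against the periphery of the RPE/choroid, where 22.8% of all genes did. GAP43 was at 4.2, 3.69, 2.51 and 2.77 CPM at the nasal location and at 7.74, 7.11, 13.6 and 7.98 CPM at the periphery, with no overlap and a log2 fold change of -1.26 (SE 0.28, edgeR adjusted p = 0.00231). STMN2 was at 0.885, 3.32, 2.4 and 7.31 CPM and at 15.5, 7.2, 42.3 and 2.74 CPM, which overlapped, with a change of -2.19 (SE 0.77, edgeR adjusted p = 0.0325). Without the peripheral RPE/choroid of eye 3, GAP43 was at -1.06 (edgeR adjusted p = 0.00767) and STMN2 at -1.79 (edgeR adjusted p = 0.11). The 6 markers of autonomic neurons, which include PRPH from the axonal list, summed to 12.9, 23.2, 53.1 and 4.01 CPM at the periphery and to between 2.52 and 7.65 CPM at the nasal location. Eye 3 was highest and eye 4 lowest for these markers and for STMN2. Of the 5 autonomic markers tested 1, PRPH, fell at the nasal location (-2.08, edgeR adjusted p = 0.0448). Schwann cell markers summed to 5665, 15266, 779 and 1399.6 CPM at the periphery and to 295, 307, 322 and 375 CPM at the nasal location, and 6 of 8 fell with a median of -4.34. The part of choroidal nerve in the members' values was not tested.

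The neurofilaments of the RPE/choroid varied widely between eyes. NEFM was highest at the fovea in 4 of 4 eyes, and its foveal levels lay above all nasal ones. Both also held for SNCG, and the latter for NEFH. NEFM was at 11.8, 8.12, 44.1 and 17.3 CPM at the fovea and at 11, 2.79, 1.38 and 0.753 CPM in the periphery, which is a difference of 2.44 on the log2 scale (SE 1.08, edgeR adjusted p = 0.0888). It was called by DESeq2 (adjusted p = 0.027), with the nasal libraries in the fit (edgeR adjusted p = 0.0472) and without eye 1 (edgeR adjusted p = 0.0349), and was at 1.86 (edgeR adjusted p = 0.162) without the foveal library of eye 3. NEFL was at 1.80 (edgeR adjusted p = 0.155), and at 1.19 without that library, and NEFH at 1.36 (edgeR adjusted p = 0.246). Rod markers, which the pigment epithelium lacks, summed to 57.9, 47.2, 489.9 and 126 CPM at the fovea, with the same eye highest as for the neurofilaments. At the periphery they summed to 959, 125, 222 and 732 CPM, where eye 1 was highest and eye 4 lowest for the neurofilaments. The part of adhering retina was not tested. No member was called by edgeR among fovea, perimacula and nasal location. Between fovea and perimacula, where 0.0447% of genes were called, 0 members had an unadjusted p under 0.05 and DESeq2 called 0. Between fovea and nasal location, where 0.361% of genes were called, 5 of 8 members tested, without RIT2, which had too few counts, had an unadjusted p under 0.05 and DESeq2 called 0. Between perimacula and nasal location (3.07% of genes), 1 had an unadjusted p under 0.05 and DESeq2 called 1. These shares are of genes called by edgeR at an adjusted p. They are no background for the counts at an unadjusted p or by DESeq2, from which no excess of members can be read.

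**Figure D5:**
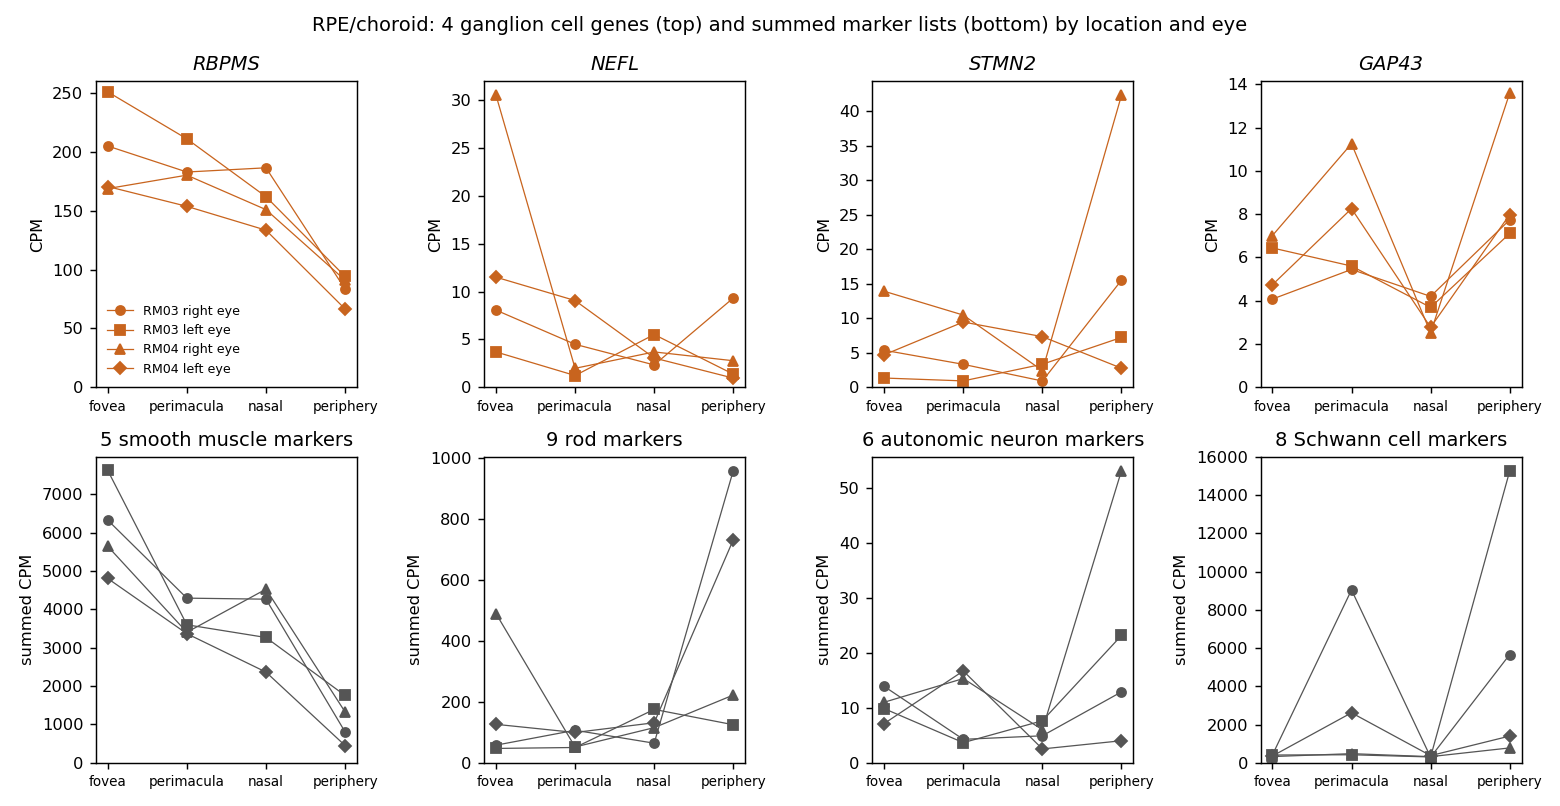
Levels in the RPE/choroid in CPM by location, with a line for each eye, for 4 members above and for summed marker lists of other cells below. RBPMS and the smooth muscle sum are lowest at the periphery, at 66.5 to 94.2 CPM and 451 to 1755 CPM, and eye 3 at the fovea is highest for NEFL and the rod sum.

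The change between locations differed between the tissues for several members, by a test of the interaction. The fovea-to-periphery difference was larger in retina for 6 of 9 members, beside 19.1% of all genes and 43.5% called in either direction. The excess was 4.48 on the log2 scale for STMN2 (SE 0.88, edgeR adjusted p = 0.000182), 3.36 for RIT2 (SE 1.06, edgeR adjusted p = 0.0121), 3.30 for RBPMS (SE 0.35, edgeR adjusted p = 3.54e-08), 3.24 for THY1 (SE 0.39, edgeR adjusted p = 2.36e-07), 2.03 for GAP43 and 1.96 for SNCG. The value of RIT2 rests on the few RPE/choroid counts given above. Without the peripheral RPE/choroid of eye 3 the excess was 3.78 for STMN2 (edgeR adjusted p = 0.00104) and 2.77 for RIT2 (edgeR adjusted p = 0.0492). NEFL, NEFM and NEFH were at 2.05, 1.58 and 1.56 and were not called (edgeR adjusted p = 0.0513, 0.168 and 0.155). Without the foveal RPE/choroid of eye 3, all 9 were called, with 2.83 for NEFL, 2.29 for NEFM and 2.17 for NEFH. Against the nasal location the excess was 1.86 for RBPMS and 1.69 for THY1 (11% of genes higher, 23.5% in either direction), and against the perimacula 1.06 for RBPMS and 1.18 for GAP43 (7.08% of genes higher, 15.2% in either direction).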

How the data were processed

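Estimated counts were used, as the authors deposited them for each of 136 sequencing lanes. Salmon 0.13 had assigned the reads to Mmul_8.0.1 transcripts, and tximport had given gene values as length-scaled TPM, on the scale of counts. Lane totals were 7932259 to 39439054. RNA came from postmortem punches and had been selected by poly-A. The values of a library's lanes were added and rounded here (5 lanes per library on 2 flow cells, 2 lanes on 1 other flow cell at the periphery), giving 32 libraries, and 10 repeated identifiers were dropped.

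The quasi-likelihood test of edgeR 4.0.16 (R 4.3.3, limma 3.58.1) was run on all genes after TMM normalization (factors 0.895 to 1.089) and filterByExpr at a minimum count of 10, with the animal as covariate and Benjamini-Hochberg adjustment. The fovea, perimacula and periphery of a tissue were fitted together, nasal comparisons came from a fit of the 4 locations, and comparisons of tissues and interactions from all 32 libraries. Ratios were tested as log2 with exact permutation tests, with no pseudocount. Correlations used log2 CPM at a prior count of 2, over genes with a mean of at least 3. Levels were not compared between genes, and no sequences are shown, since lengths and sequences of this build were not used here.

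All 9 members were tested where their counts allowed, and those called are named. Of the 2 lists closest to them, the 3 largest and 3 smallest called changes and any opposite sign are named. Members and lists were chosen with earlier results of these data known. Some results are not reported. Not analysed here were, among others, the listed symbols CALB2, EOMES, VSX1 and CHRNB3, and INA, TAGLN, GLUL, TUBB3, LUM and MAPT are each on 2 entries and uncertain.

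On simulated data with 200 genes changed by 1.5 on the log2 scale, the test recovered 87% between fovea and periphery of the retina (15288 genes), 74.5% of the RPE/choroid (15557 genes) and 75.5% between tissues at the fovea (16251 genes), with 5.43%, 3.87% and 1.95% false calls. The simulated libraries had no difference between animals and no likeness of fellow eyes. Far fewer genes changed in them than were called in the real data, so these rates may not carry over. Replicate libraries differed by at least 4.51 times the counting variance, so that none was a repeat of another. Equal eye numbers are the same eye of the same animal, and deviations of same-eye libraries from their group means correlated at a mean of 0.558 in retina and 0.390 in RPE/choroid, with a lowest value of 0.165. Fellow eyes of an animal correlated as much (0.553 and 0.407). Libraries of different animals correlated at -0.555 and -0.398, in part because deviations from a group mean cancel out. The eye was also used as a block. The other alternatives were DESeq2 1.42.0, RLE or library totals for scaling, no filter, no covariate, 1 flow cell per library and the compared or the 4 locations. Each eye was also left out and, for ratios, a pseudocount of 1 CPM or THY1 as the denominator was used. With 1 flow cell per library, the periphery libraries were still on another flow cell than the rest. Leaving out 3 single libraries was added after the data were seen. The remaining steps used Python 3.11.15, numpy 2.4.6, pandas 2.3.3, scipy 1.17.1 and matplotlib 3.10.9.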

Additional observations from a re-analysis of the deposited data

Results flagged for a closer look

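Of 72 groups of 4 eyes, 5 held an eye far from the others by Dixon's test, which chance gives in about 1 of 20 groups. In the perimacular retina, eye 4 was high for RBPMS, at 234 CPM against 94.3 to 112 CPM, and for STMN2, at 733 CPM against 399 to 428 CPM. In the nasal retina, eye 4 was low for NEFL, at 511 CPM against 555 to 561 CPM. In the RPE/choroid, eye 3 was high for GAP43 at the periphery, at 13.6 CPM against 7.11 to 7.98 CPM, and for RIT2 at the fovea, at 0.441 CPM against 0 to 0.0221 CPM.

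The change between locations differed between retina and RPE/choroid in 10 tests of the interaction (edgeR). Between fovea and periphery the excess in retina on the log2 scale was 4.48 for STMN2, 3.36 for RIT2, 3.30 for RBPMS, 3.24 for THY1, 2.03 for GAP43 and 1.96 for SNCG. Between fovea and nasal location it was 1.86 for RBPMS and 1.69 for THY1, and between fovea and perimacula 1.18 for GAP43 and 1.06 for RBPMS. For GAP43, STMN2 and RIT2 the fitted change ran in opposite directions in the tissues. In the RPE/choroid it was -0.55, -1.42 and -2.11 between fovea and periphery, none of which was called there (edgeR adjusted p = 0.0851, 0.157 and 0.259). The value of RIT2 rests on few RPE/choroid counts. With the eye as a block GAP43 was called in that comparison (-0.56, edgeR adjusted p = 0.0425).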

How the results depend on the processing

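In the retina, the comparisons with the fovea or the periphery kept their direction for all 9 members under every alternative run, and those of fovea against periphery and against nasal location called all 9 under each. NEFH lost its call of fovea against perimacula without eye 1, 2 or 3 (edgeR adjusted p = 0.099, 0.0734 and 0.109). GAP43 lost that of perimacula against periphery without eye 4 (0.105), and between nasal location and periphery RIT2 lost its call with no covariate (0.0501) and without eye 2 or 4 (0.0594 and 0.054), and SNCG without eye 4 (0.0631). With 4 eyes of 2 animals the precision is limited by the number of eyes rather than by depth, except for RIT2 in the RPE/choroid. The ratio calls to RBPMS, 8 against the periphery and 4 against the nasal location, kept these numbers with a pseudocount of 1 CPM, whereas with THY1 as the denominator NEFL and NEFM were higher at the fovea (0.60 and 0.62 against the periphery) and SNCG and STMN2 were not called against the nasal location. Scaling by library totals moved the median of all genes by up to 0.172 on the log2 scale and RLE by up to 0.044. The cause of the changes below was not tested.

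Between perimacula and nasal retina 3 members were called, 6 by DESeq2, 1 with the compared locations alone, and 0 with no covariate, without any single eye (0 to 0) or without the perimacular library of eye 4. In the RPE/choroid, the 1 member called between fovea and periphery became 2 by DESeq2, with library totals, with the 4 locations and without the peripheral library of eye 3 (SNCG 1.07, edgeR adjusted p = 0.0492), and 1 to 3 without each eye. The 1 between perimacula and periphery became 2 by DESeq2 and 1 to 3 without each eye. The 0 between perimacula and nasal location became 1 by DESeq2, with library totals, with 1 flow cell and with the compared locations alone. The 2 interactions of fovea and perimacula became 0 to 1 without each eye, 1 without the foveal RPE/choroid of eye 3, and 3 by DESeq2, with library totals and without the perimacular retina of eye 4 (THY1 1.27, edgeR adjusted p = 0.0199, being added).

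With a block for the eye, fovea against periphery of the RPE/choroid gave 2 calls in place of 1, GAP43 being added (-0.56, edgeR adjusted p = 0.0425). The block ended the calls of NEFL between perimacula and nasal retina (0.0503) and of STMN2 between nasal location and periphery of the RPE/choroid (-1.79, edgeR adjusted p = 0.1). That STMN2 call was also lost with no covariate (0.0978), with the compared locations alone (0.0749) and without eye 1 or 3 (0.208 and 0.264). Between the tissues, RBPMS at the fovea was lost without eye 1 or 3 (0.0875 and 0.0672), GAP43 at the periphery with no covariate or without eye 1 or 4 (0.0563, 0.279 and 0.0815) and the RIT2 interaction of fovea and periphery without eye 1 or 2 (0.0615 and 0.102). The NEFL interaction was gained by DESeq2 (2.07, adjusted p = 0.0381), library totals (2.22, edgeR adjusted p = 0.0361) and 1 flow cell (2.07, edgeR adjusted p = 0.0497).

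None of the values that changed sign was called before or after the change. THY1 between tissues at the periphery was 0.0095 by DESeq2 and RLE and 0.0058 with library totals, and -0.39 to 0.38 without each eye. THY1 of perimacula against periphery in the RPE/choroid was -0.029 with library totals and with 1 flow cell. With the block, SNCG in that comparison was 0.13 and NEFL of perimacula against nasal location -0.21, and NEFL of nasal location against periphery was -0.038 with library totals. Without each eye or one of the 3 libraries, values ranged as follows. In the retina, GAP43 of perimacula against nasal location ran from -0.077 to 0.17, and the log2 ratio of NEFM to NEFL between fovea and periphery from -0.049 to 0.083. In the RPE/choroid, fovea against perimacula ran from -0.088 to 0.64 for STMN2, -0.064 to 0.49 for THY1 and -0.86 to 1.92 for RIT2, and fovea against periphery from -0.017 to 0.35 for THY1. Perimacula against periphery ran from -0.27 to 0.29 for THY1, -0.34 to 0.49 for SNCG, -0.87 to 0.82 for NEFH, -0.78 to 0.97 for NEFL and -0.33 to 1.67 for NEFM. Perimacula against nasal location ran from -0.63 to 0.65 for NEFL, -0.41 to 0.91 for NEFM, -0.012 to 1.08 for STMN2, -0.22 to 1.31 for NEFH and -0.14 to 0.29 for THY1. Nasal location against periphery ran from -0.26 to 1.57 for NEFL, -0.88 to 0.97 for NEFH, -0.31 to 0.10 for THY1, -0.018 to 1.88 for NEFM and -0.45 to 0.068 for SNCG. The interactions of fovea and perimacula ran from -1.16 to 0.48 for NEFH, -0.83 to 0.65 for NEFL, -0.91 to 0.71 for NEFM and -0.72 to 2.19 for RIT2, and those of fovea and nasal location from -0.073 to 0.52 for GAP43, -0.37 to 1.05 for NEFH, -0.061 to 1.51 for NEFL, -0.070 to 1.42 for NEFM and -2.81 to 1.53 for RIT2.

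Counts over all genes moved by over 1.5 times in several comparisons. The 5416 between fovea and perimacula of the retina became 3225 without eye 1 and 3406 without eye 3. Between perimacula and nasal retina 231 genes were called, 785 by DESeq2, 29 with no covariate 14 to 66 without each eye and 71 without the perimacular library of eye 4. In the RPE/choroid, 5471 between perimacula and periphery became 3314 without eye 4, and 7 between fovea and perimacula became 314 by DESeq2, 357 with the compared locations alone, 22 with 4 locations, 11 with 1 flow cell, 1 with the block or no covariate and 0 without eye 1, 3 or 4. The 57 between fovea and nasal location became 490 by DESeq2, 346 with these locations alone, 30 with the block, 4 with no covariate and 0 to 10 without each eye. The 484 between perimacula and nasal location became 1247 by DESeq2, 1201 with library totals, 1677 with these locations alone, 269 with the block, 53 with no covariate and 19 to 195 without each eye. The 2494 interactions of fovea and perimacula became 1641 with no covariate, 1023 without eye 1 and 867 without eye 3, and the 3853 of fovea and nasal location 2548 without eye 1 and 2510 without eye 4.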
